A study of Mus musculus with 5 samples.

Results

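MLL-AF9-only regions are stretches of the mouse genome where progenitors transduced with the fusion oncogene MLL-AF9 had a listed peak of ubiquitinated histone H2A (H2AK119Ub) and no other library of the study did. To find them, the peaks of all 4 deposited lists were merged where they overlapped or touched, which gave 2575 regions. Of these, 324 regions (12.6%) held a peak of the MLL-AF9 list and of no other list. They were 24.0% of the 1349 regions with an MLL-AF9 peak, and each consisted of 1 peak. The members were chosen by the presence of peaks in the 4 lists, so presence in MLL-AF9 and absence elsewhere is a description with no test.

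The study asked where the Polycomb mark lay in lineage-negative (Lin-) haematopoietic progenitors carrying different leukaemia oncogenes. Chromatin immunoprecipitation and sequencing was done on bone marrow cells of C57BL/6 mice with the genotype R26CreERT2;Ring1a-/-;Ring1bf/f;Cdkn2a-/-. The groups were cells transduced with MLL-AF9, with PML-RARa or with HOXA9, and non-transduced (NT) cells, with 1 library and 1 peak list each. All groups thus shared the loss of Cdkn2a and of Ring1a, a floxed Ring1b and a tamoxifen-inducible Cre expressed from the Rosa26 locus; whether tamoxifen had been given, and the age of the mice, were not stated in the labels. Since the labels give no cells that received an empty vector, an oncogene and the transduction itself cannot be told apart, and every difference compares single libraries.

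H2AK119Ub is placed by Polycomb repressive complex 1 (PRC1), whose ubiquitin ligases are RING1A and RING1B. The mark lies over silent genes, many of them regulators of development, and can spread over broad domains. Cdkn2a encodes tumour suppressors that arrest the cell cycle and is itself a known PRC1 target. MLL-AF9 joins a part of the histone methyltransferase MLL to AF9, a partner that brings in factors of transcription elongation, and it drives acute myeloid leukaemia. PML-RARa is the fusion of acute promyelocytic leukaemia, and HOXA9 is a homeobox factor that is highly expressed in MLL-rearranged leukaemia.

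The lists held 1408 peaks in MLL-AF9, 1772 in PML-RARa, 620 in HOXA9 and 1332 in NT cells. The score of each peak was the authors' own, on a scale that was not stated, and it was read only within its own list. The lists give no read counts, so the depth of the libraries is unknown. Positions are those of the mouse build mm9. Genes were not assigned, since an mm9 annotation was not used here. Intervals are exact 95% binomial intervals; they treat regions as independent and cover counting error only.

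MLL-AF9-only regions were mostly of modest width and low score within their own list, with a few exceptions near its top. Together they covered 4.57 Mb, which was 16.9% of the length covered by MLL-AF9 peaks, while they were 23.0% of the peaks. Their widths ran from 1.67 to 131 kb, with a median of 11.4 kb (interval 10.25 to 11.99) and quartiles of 6.91 and 17.8 kb. The other 1084 MLL-AF9 peaks, which shared a region with at least 1 other list, had a median width of 16.1 kb, with an upper quartile of 25.8 kb. Scores of the MLL-AF9-only regions ran from 703 to 1937, with a median of 862.5 (interval 839 to 896), against a median of 1008 for the shared MLL-AF9 peaks. Both ranges overlapped widely. Within each of the other lists, too, single-list peaks had lower median scores and widths than shared peaks. Median scores, alone against shared, were 907 against 1061 in PML-RARa, 839 against 874 in HOXA9 and 839 against 969 in NT. Median widths, in the same order, were 11.4 against 19.0 kb, 11.6 against 17.8 kb and 16.0 against 19.4 kb.

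The share of peaks found in MLL-AF9 alone was lower in each higher class of the list's own scores. In the lowest of 4 classes bounded by the quartiles of the score (703 to 839) it was 146 of 364 peaks (40.1%, interval 35.0 to 45.3). It was 24.9% in the second class, 18.6% in the third and 26 of 345 (7.54%, interval 4.98 to 10.8) in the highest class, whose scores began at 1120. By width, 128 of the 353 narrowest MLL-AF9 peaks (36.3%, interval 31.2 to 41.5) and 41 of the 352 widest (11.6%, interval 8.49 to 15.5) were in that list alone. Among the 50 peaks with the highest scores 3 were MLL-AF9-only, and among the top 100 there were 6. Within the MLL-AF9-only regions score hardly followed width (Spearman's rho 0.08 over 324 peaks of 1 library), and in the shared peaks it followed it weakly (rho 0.25 over 1084 peaks). These values come from the list that chose the members and were not tested.

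**Figure D1:**
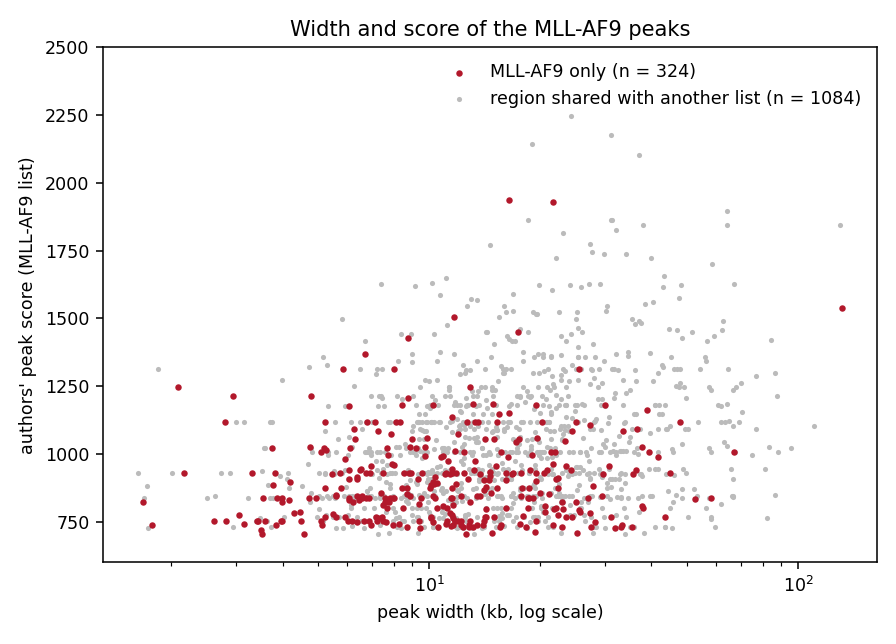
Width (kb, log scale) and authors' score of each peak of the MLL-AF9 list, with peaks in MLL-AF9 alone in red and peaks whose region was shared with another list in grey. Most red points sit in the low-score band, and 2 of them stand above a score of 1900.

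The strongest MLL-AF9-only region lay on chromosome 4 at 135736083 to 135752501, with a width of 16.4 kb and a score of 1937, the fifth highest of the MLL-AF9 list. It ended 0.843 kb before another MLL-AF9 peak of 37.6 kb, which belonged to a region shared by all 4 libraries. The nearest PML-RARa peak was 21.5 kb away on the left side, while the nearest HOXA9 and NT peaks lay 18.1 and 26.7 kb to the right. The MLL-AF9 peak thus filled part of the space between stretches that the other libraries also had marked.

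A region on chromosome 15 at 74336666 to 74358364 had nearly the same score (1930, width 21.7 kb). It stood further apart: the nearest peak was 130 kb away in PML-RARa, 1050 kb away in HOXA9 and 26.6 kb away in NT. The NT peak on its right, of 44.4 kb, was overlapped by a separate MLL-AF9 peak of 23.3 kb with a score of 1306.

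The widest MLL-AF9-only region was on chromosome 5 at 125496784 to 125628069, with 131 kb and a score of 1537. Its right end lay 0.826 kb before the next MLL-AF9 peak, at 125628896 to 125685020, and PML-RARa had nearly the same peak there, at 125628910 to 125684968. On its left, NT had a peak of 23.6 kb that ended 5.53 kb before it. HOXA9 had no listed peak within 154.6 kb. MLL-AF9 peaks therefore ran almost without a break through the domain and its right neighbour, where PML-RARa covered the right part and NT a flank on the left.

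Chromosome 11 held both regions that followed by score. The one at 83216451 to 83228082 (11.6 kb, score 1505) was isolated, with the nearest peak 402.1 kb away in PML-RARa, 425.9 kb in HOXA9 and 415.5 kb in NT. The one at 97298985 to 97316386 (17.4 kb, score 1451) lay 28.4 kb from a PML-RARa peak, 28.8 kb from a HOXA9 peak and 28.8 kb from an NT peak, all of 1 region common to the 4 libraries. A region of 8.75 kb on chromosome 17 at 48229820 to 48238570 (score 1427) was at the right end of a row of PML-RARa peaks, the nearest of them 52.8 kb away.

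**Figure D2:**
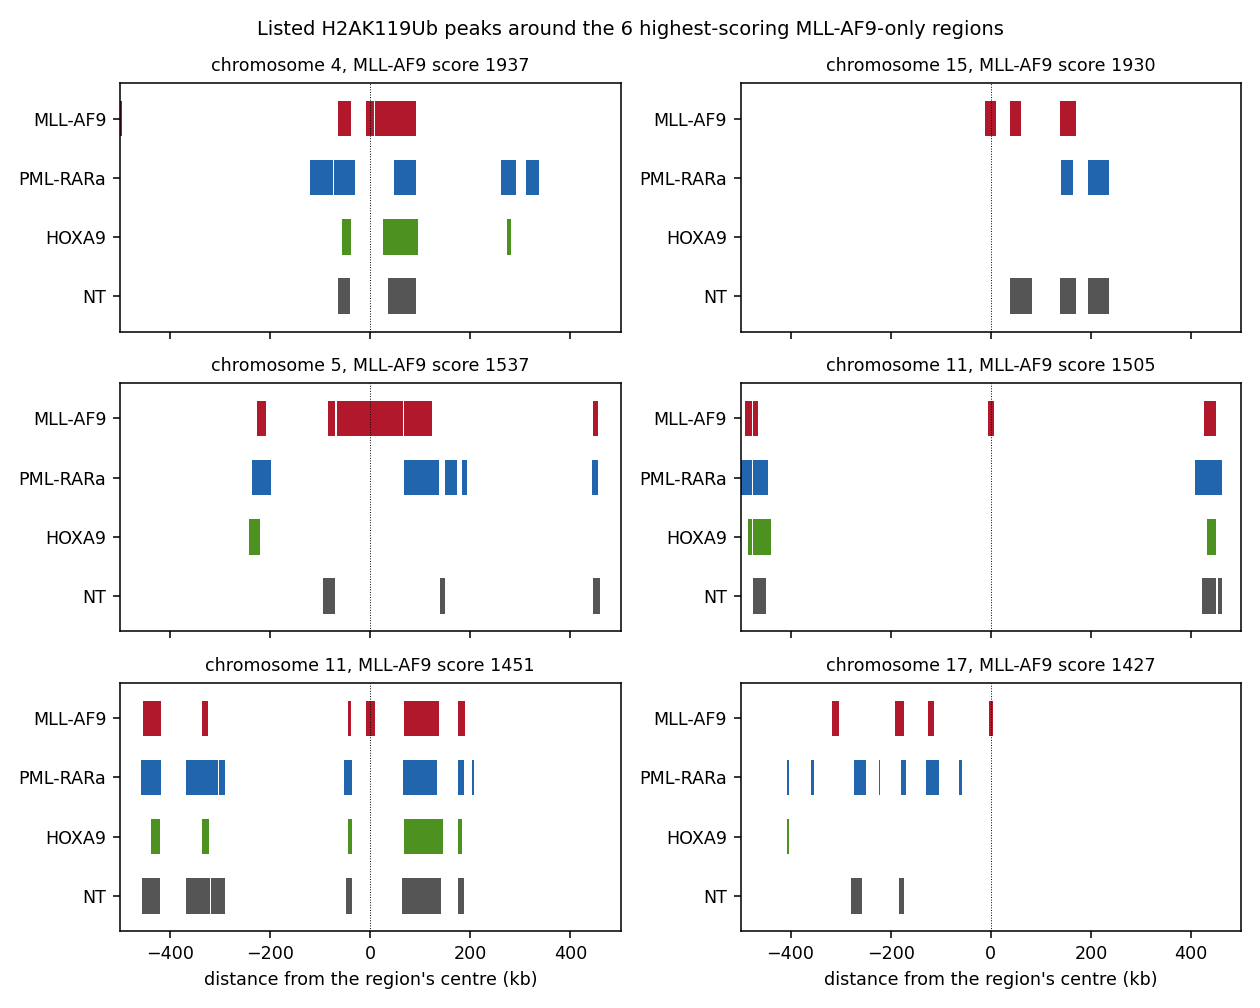
Listed peaks of the 4 libraries (rows) within 500 kb of the centre of the 6 MLL-AF9-only regions with the highest scores; x, distance from the centre in kb, and each bar is 1 peak at its true width. At the centre a bar appears in the MLL-AF9 row and in no other row; peaks less than 1 kb apart, as on chromosomes 4 and 5, run together at this scale.

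Further down the score list the regions differed in the same way in how far they stood from other marked stretches. On chromosome 12, a region of 6.71 kb at 74036873 to 74043579 (score 1368) lay 91.6 kb from a PML-RARa peak, 90.6 kb from a HOXA9 peak and 89.8 kb from an NT peak. These belonged to 1 region that had no MLL-AF9 peak. The 25.4 kb region on chromosome 19 at 41805772 to 41831201 (score 1315) had its nearest neighbour in NT, 69.2 kb away. The regions of the same score on chromosome 7 at 53086747 to 53092563 and chromosome 9 at 87623590 to 87631592 were narrow (5.82 and 8.003 kb), and their nearest other-list peaks were 29.4 and 710.5 kb away.

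Scores of 1245 were reached by a region of 2.09 kb on chromosome 7 at 91029933 to 91032019 and by one of 12.9 kb on chromosome 2 at 181217296 to 181230188. The one on chromosome 2 sat 9.37 to 9.63 kb beyond the right edges of the PML-RARa, HOXA9 and NT peaks of a domain common to all libraries. Another pair had scores of 1215. Of these, the region on chromosome 2 at 21062645 to 21065583 (2.94 kb) was 1481 kb from its nearest PML-RARa peak and 3094 kb from HOXA9 and NT peaks. The region on chromosome 19 at 43514489 to 43519268 (4.78 kb) was 152.6 kb from a PML-RARa peak, 133.9 kb from a HOXA9 peak and 150.0 kb from an NT peak. The last of the 15 by score, on chromosome 5 at 141076004 to 141084755 (8.75 kb, score 1207), was 441.0 kb from an NT peak.

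Broad domains were few among the MLL-AF9-only regions: 4 of the 67 MLL-AF9 peaks over 50 kb were in that list alone, against 23.0% of all its peaks. Single-list peaks were also few among the peaks over 50 kb of the other lists. They were 6 of 86 in PML-RARa, 0 of 35 in HOXA9 and 15 of 108 in NT. After the 131 kb domain came 66.9 kb on chromosome 9 at 61488457 to 61555357 (score 1008), which stood 178.6 kb from PML-RARa, 1426 kb from HOXA9 and 298.6 kb from NT peaks. A domain on chromosome 14 at 121928488 to 121986452 (58.0 kb, score 836) began to the right of a region marked in all 4 libraries. There the gap was 12.2 kb to the HOXA9 peak, 21.4 kb to the PML-RARa peak and 21.1 kb to the NT peak. The fourth, of 52.6 kb on chromosome 8 at 123702443 to 123755015 (score 832), lay 1.17 kb from an MLL-AF9 peak of 45.4 kb and 8.81 kb from an NT peak, both in a region common to all libraries. The next 6 by width ran from 38.9 to 47.9 kb and lay on chromosomes 5, 9, 13 and 14. The widest of them, at 47583968 to 47631882 on chromosome 14 (score 1116), was 67.6 kb from PML-RARa, 74.3 kb from HOXA9 and 7553 kb from NT peaks.

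Narrow peaks were more common. Of the 76 MLL-AF9 peaks under 5 kb, 36 were MLL-AF9-only regions, against 23.0% of all MLL-AF9 peaks. Under 5 kb, single-list peaks were 95 of 126 in PML-RARa, 6 of 29 in HOXA9 and 24 of 61 in NT. Over all peaks their shares were 32.7%, 7.42% and 23.2%, so this was not particular to MLL-AF9. The narrowest were 1.67 kb on chromosome 17 at 56806372 to 56808042 (score 824) and 1.77 kb on chromosome 2 at 59000170 to 59001943 (score 739). The 2.09 kb region on chromosome 7 came next, followed by 2.16 kb at 50801766 to 50803928 on the same chromosome (score 928). The fifth, at 53299312 to 53301923 on chromosome 11 (2.61 kb, score 751), lay 1.35 kb outside a PML-RARa peak of 36.1 kb.

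MLL-AF9-only regions lay at all distances from stretches marked in other libraries. The median distance to the nearest peak of any other list was 113.9 kb, with quartiles of 28.1 and 435.1 kb. It was 178.2 kb to PML-RARa, 697.6 kb to HOXA9 and 262.2 kb to NT peaks, an order that also follows the length of these lists. Within 50 kb of another list's peak lay 110 of 324 regions (34.0%, interval 28.8 to 39.4), and 43 were more than 1000 kb away from any. The near ones had a median width of 13.5 kb and the far ones of 7.23 kb.

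Set beside the regions of other single lists, the distances were close to those of PML-RARa and HOXA9 and longer than those of NT. There were 580 PML-RARa-only regions (22.5% of all merged regions), 46 HOXA9-only regions (1.79%) and 309 NT-only regions (12.0%). Beside the 24.0% in MLL-AF9, the single-list share of the regions with a peak of the same list was 33.9% in PML-RARa, 7.68% in HOXA9 and 24.2% in NT. The median to any other list was 113.9 kb for MLL-AF9-only, 129.2 kb for PML-RARa-only, 111.8 kb for HOXA9-only and 63.5 kb for NT-only regions. The share within 50 kb was 34.0% in MLL-AF9, 31.6% in PML-RARa, 32.6% in HOXA9 and 45.3% (interval 39.7 to 51.0) in NT. The intervals of MLL-AF9 and NT did not overlap, but each distance depends on the other lists' lengths, and the difference was not tested. NT-only regions also differed in width, with a median of 16.0 kb, against 11.4 kb in MLL-AF9, 11.4 kb in PML-RARa and 11.6 kb in HOXA9.

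**Figure D3:**
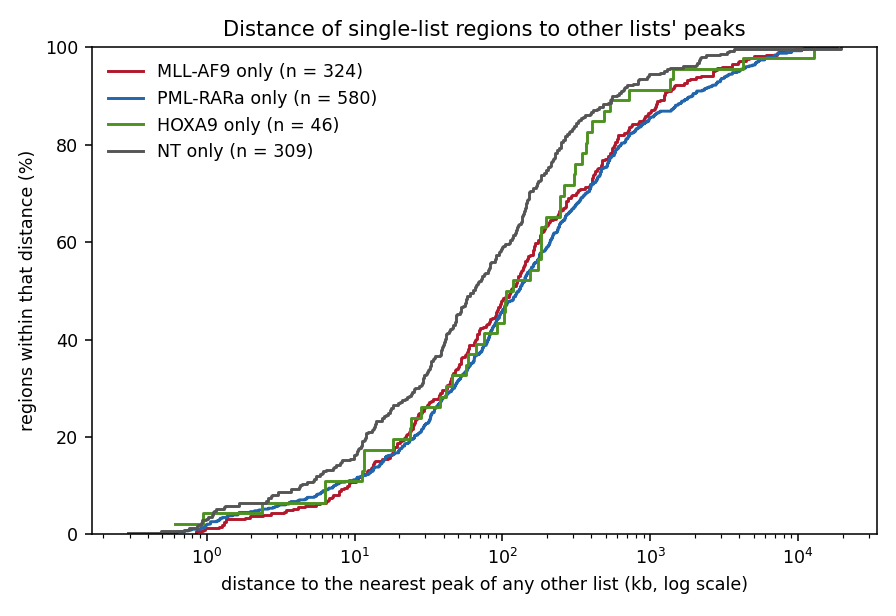
Cumulative share (%) of the regions of a single list that lie within a given distance (kb, log scale) of the nearest peak of any other list, for MLL-AF9-only, PML-RARa-only, HOXA9-only and NT-only regions. The MLL-AF9 line runs with those of PML-RARa and HOXA9, with 34.0% within 50 kb, and the NT line lies above it, with 45.3%.

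Part of the MLL-AF9-only regions lay near stretches that MLL-AF9 shared with other libraries. In 61 of the 110 regions within 50 kb of another list's peak (55.5%, interval 45.7 to 64.9), that neighbour lay in a region that MLL-AF9 had marked too. In the other 49 the neighbour was a region without an MLL-AF9 peak. The matching counts with a peak of the same list in the neighbouring region were 111 of 183 in PML-RARa (60.7%), 4 of 15 in HOXA9 (26.7%, interval 7.79 to 55.1) and 82 of 140 in NT (58.6%). The PML-RARa and NT shares lay within the interval of the MLL-AF9 one and the HOXA9 share, over 15 regions, below it. The differences were not tested. As a base, 324 of the 2575 merged regions were MLL-AF9-only, and 1025 of the rest also held an MLL-AF9 peak. In PML-RARa 580 of 1712 regions were single-list, in HOXA9 46 of 599 and in NT 309 of 1275. A list with fewer regions can supply fewer such neighbours, so each share has its own base and they cannot be compared directly. Counted from the MLL-AF9 list itself, 26 regions lay within 10 kb of an MLL-AF9 peak that was shared, and they had a median width of 19.3 kb. Another MLL-AF9 peak lay at a median distance of 209.6 kb from the MLL-AF9-only regions and of 126.3 kb from the shared MLL-AF9 peaks. The 1084 shared peaks lay in 1025 regions, so their nearest peak could belong to the same region. For the MLL-AF9-only regions, of 1 peak each, it could not.

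The edge of the definition touched few regions. Just inside it, 4 MLL-AF9-only regions had another list's peak within 1000 bp and 19 within 5000 bp. The nearest were the 131 kb domain on chromosome 5 and a region of 12.7 kb on chromosome 11 at 70514375 to 70527067, each 0.840 kb from a PML-RARa peak. A region on chromosome 5 at 144802030 to 144819779 lay 0.936 kb from a PML-RARa peak, one on chromosome 7 at 147229974 to 147240298 lay 0.975 kb from an NT peak, and one on chromosome 17 at 27094636 to 27108753 lay 1.21 kb from a PML-RARa peak. Measured to MLL-AF9 peaks of shared regions, 5 MLL-AF9-only regions lay within 1 kb. These included the highest-scoring region, on chromosome 4 (0.843 kb), and the 131 kb domain (0.826 kb).

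Just outside the definition, the smallest overlap was on chromosome 11, where 743 bp of an MLL-AF9 peak of 27534 bp at 101903943 to 101931476 met an NT peak. On chromosome 2, 998 bp of a 2011 bp peak at 165818376 to 165820386 were shared with NT. The next overlaps, of 1554, 1690 and 1720 bp on chromosomes 4, 1 and 7, covered 95.5 to 100% of narrow MLL-AF9 peaks. Of the 1025 shared regions with an MLL-AF9 peak, 34 had less than 50% of the MLL-AF9 length covered by other lists.

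Absence from a list does not show absence of the mark, since the lists begin at a score of 700 and their peak numbers have gaps. Peak names were numbered along the genome, so where the numbers of the listed peaks to the left and right of a position were consecutive, that library had no numbered call there. Among the MLL-AF9-only regions this was so in 188 regions for PML-RARa (58.2%, interval 52.6 to 63.6), in 120 for HOXA9 (37.2%, interval 31.9 to 42.7) and in 153 for NT (47.4%, interval 41.8 to 53.0). The shares are of 323 regions, because 1 on chromosome X lay after the last listed peak of the 3 other lists. Their order also follows the length of these lists. For 34 regions (10.5%, interval 7.40 to 14.4) no number was missing in any of the 3 lists, and for 43 (13.3%) a number was missing in each of them. The share with none missing was 11.7% of PML-RARa-only, 10.9% of HOXA9-only and 15.9% of NT-only regions. A number was missing in each other list for 14.3%, 15.2% and 9.39% of them, in the same order. The differences were not tested. With 1 list fewer to satisfy, and the members found anew, the share of MLL-AF9-only regions with no missing number was 19.0% without PML-RARa, 26.3% without HOXA9 and 19.9% without NT.

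Missing numbers were also counted over the gaps that held the other regions. The 135 regions at a gap of the PML-RARa numbering lay in 95 gaps with 114 missing numbers, out of 352 in that list. For HOXA9, 203 regions lay in 105 gaps with 178 missing numbers, and for NT 170 regions lay in 118 gaps with 163. Each of these totals was below the number of regions, but a single missing call could span several regions, so the totals set no limit. Whether a missing number marked a call inside a given region cannot be read from the lists.

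**Figure D4:**
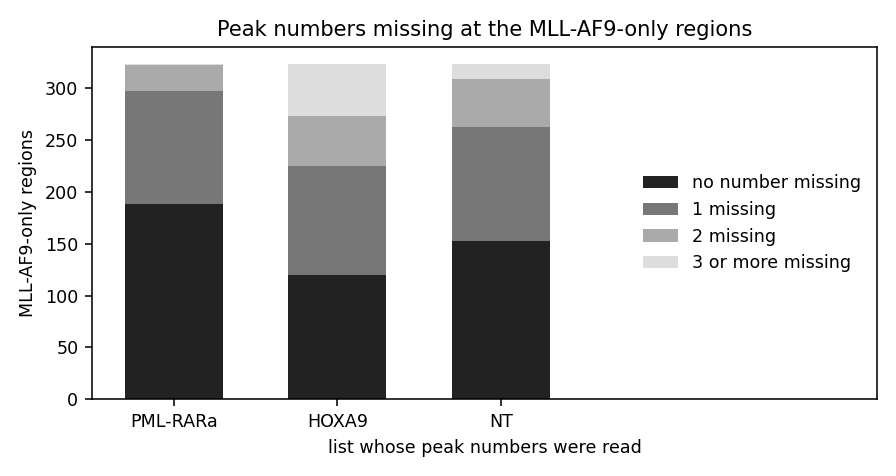
Number of MLL-AF9-only regions (y) at which none, 1, 2 or at least 3 peak numbers were missing in the PML-RARa, HOXA9 and NT lists (x); 1 region after the last listed peaks is not drawn. The black part, with no number missing, covers 188 regions in PML-RARa, 120 in HOXA9 and 153 in NT.

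Regions with no missing number in any other list had scores from 727 to 1451 and lay on 15 chromosomes. The highest were those described on chromosome 11 at 97298985, on chromosome 2 at 181217296 and on chromosome 19 at 43514489. The fourth, on chromosome 18 at 46368405 to 46376127 (7.72 kb, score 994), was 7239 kb from the nearest PML-RARa and HOXA9 peaks and 7241 kb from the nearest NT peak. The median score of the 34 was 867.5, against 862.5 in the other 290 regions.

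In places, MLL-AF9-only regions followed each other along a chromosome with no listed peak of another library in between. A run is defined by this order and not by closeness. With 12.6% of all merged regions being members, some neighbours in order are bound to be members. Runs of the other single-list regions were not counted, and clustering was not tested. Such runs held 4 regions in 4 cases, 3 in 5 cases and 2 in 43 cases, and 207 regions stood singly. On chromosome 10 a run of 4 spanned 90427012 to 95352856, with widths from 4.18 to 9.86 kb and scores from 830 to 1060. Of its span of 4926 kb, 24.7 kb were covered. Its last 3 members were among the 5 regions farthest from any other list, at 7332 to 9581 kb from the nearest NT peak. Between the listed peaks of each other list that flank this run, 1 PML-RARa number, 2 HOXA9 numbers and 1 NT number were missing. The missing calls may thus lie outside the run.

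The most compact run of 4 lay on chromosome 6 from 30407976 to 31172260, a span of 764 kb of which 57.8 kb were covered. Its scores ran from 802 to 911. Counted between the flanking listed peaks, here and for the runs below, 1 PML-RARa number, 1 HOXA9 number and no NT number were missing. The run on chromosome 2 reached from 102495835 to 104977982, with scores of 839 to 1008, and 1 PML-RARa number, 1 HOXA9 number and 3 NT numbers were missing. On chromosome 12 a run of 4 from 103976964 to 106700830 had scores of 743 to 1107, with no PML-RARa and no NT number missing, but 4 HOXA9 numbers. Among the 5 runs of 3, the shortest was on chromosome 5 from 144964044 to 145084977, with 83.8 kb covered out of 120.9 kb. Counted in the same way, no PML-RARa number was missing, while 2 HOXA9 numbers and 1 NT number were.

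By chromosome, the members followed the number of MLL-AF9 regions, with some spread. Chromosome 2 had the most (37 of 135 MLL-AF9 regions, 27.4%), followed by chromosome 9 with 32 of 99 (32.3%, interval 23.3 to 42.5). The share was highest on the X chromosome, but with 3 of 6 regions only. Among autosomes it was highest on chromosome 12 (21 of 58, 36.2%, interval 24.0 to 49.9) and lowest on chromosome 11 (19 of 133, 14.3%, interval 8.83 to 21.4) and chromosome 4 (17 of 111, 15.3%, interval 9.18 to 23.4). Chromosomes 11 and 4 were the ones whose intervals lay below the 24.0% of all MLL-AF9 regions, and with 20 chromosomes compared these shares were not tested. On chromosome 11 the share in a single list was 55 of 174 regions in PML-RARa (31.6%), 3 of 65 in HOXA9 (4.62%) and 30 of 141 in NT (21.3%). On chromosome 4 it was 44 of 134 regions in PML-RARa (32.8%), 3 of 53 in HOXA9 (5.66%) and 20 of 104 in NT (19.2%). All of these were below the shares of the whole lists, which were 33.9% in PML-RARa, 7.68% in HOXA9 and 24.2% in NT.

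**Figure D5:**
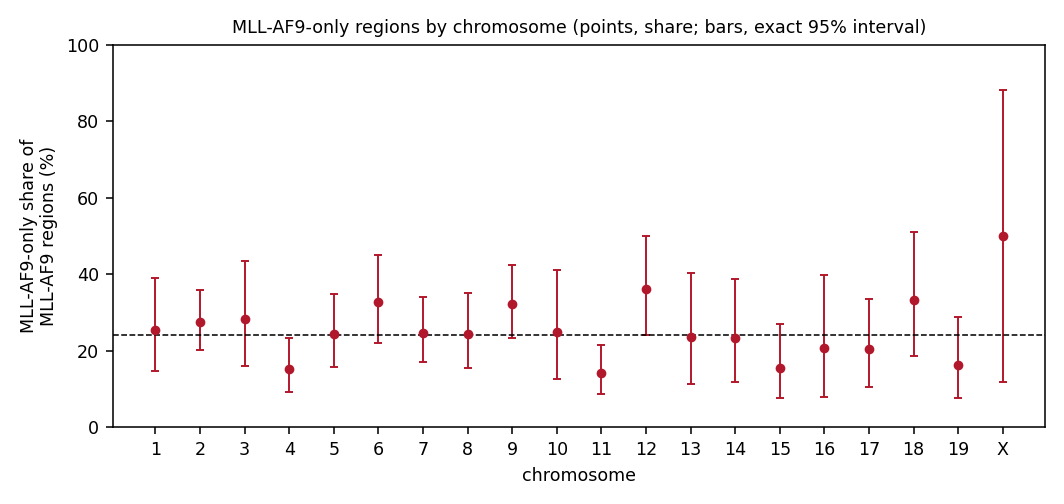
Share (%) of the regions with an MLL-AF9 peak that were marked in MLL-AF9 alone, by chromosome, with exact 95% binomial intervals; the dashed line is the share over all chromosomes, 24.0%. Chromosome 11 (14.3%) and chromosome 4 (15.3%) lie below the line with their whole intervals.

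How many regions counted as MLL-AF9-only depended on which lists they were held against. Without the PML-RARa list, the longest, 533 regions would count, without the HOXA9 list 354 and without the NT list 439. A further 195 MLL-AF9 regions were shared with PML-RARa alone, 29 with HOXA9 alone and 112 with NT alone. MLL-AF9-only peaks, with medians of 11.4 kb and 862.5, stood beside MLL-AF9 peaks of 10.8 kb and 928 in the regions shared with PML-RARa, of 11.4 kb and 928 in those shared with HOXA9 and of 15.3 kb and 918 in those shared with NT. The 309 regions of all 4 libraries had a median MLL-AF9 width of 19.5 kb and a median score of 1118. Where a region was shared with a single other list, that list's peak lay at or below the lower quartile of its own scores in 54 of 195 regions for PML-RARa (27.7%), 14 of 29 for HOXA9 (48.3%) and 32 of 112 for NT (28.6%). By definition, at least 1 in 4 peaks of any list lie at or below its lower quartile. The PML-RARa and NT shares lay near that base and the HOXA9 share, over 29 regions, above it. The differences were not tested.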

How the data were processed

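H2AK119Ub ChIP-seq libraries of MLL-AF9, PML-RARa, HOXA9 and NT progenitors were analysed from 1 peak list each; of 5 samples described, the input was not analysed here. Per the labels' protocols, chromatin was fixed with 1% formaldehyde and sheared to 200 to 300 bp on average. Bowtie, MACS2 and the build mm9 are named in the submitters' processing notes, without versions, parameters or the role of the input. Each deposited list holds chromosome, start, end, peak name and a score set by the authors, with no header. Positions follow the BED convention in the files and count from 1 in the text.

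Peaks were merged when they overlapped or touched. Missing peak numbers were counted between a region's left and right listed neighbours in each other list. No test between groups was possible with 1 library each, and no p-value is given. Shares have exact (Clopper-Pearson) 95% intervals and medians exact binomial intervals of the order statistics, for counting error only. The code was tested on simulated lists. Named regions were the 15 with the highest scores, the 10 widest, the 5 narrowest, the 5 nearest to and farthest from other lists, the 5 smallest overlaps and the 3 longest runs by number of members. Since 4 runs tied at 4 members, all 4 are given; the shortest run of 3 and the top regions with no missing number were added after their values were seen. The members and this rule were chosen with earlier results of these data known. No gene or sequence was assigned to a region, because the reference tables used were of another build (GRCm38). Intervals came from scipy 1.17.1, tables from pandas 2.3.3 with numpy 2.4.6, and figures from matplotlib 3.10.9, under Python 3.11.15.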

Additional observations from a re-analysis of the deposited data

How the results depend on the processing

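Each of 7 values (number, share of MLL-AF9 regions, covered length, median width, median score, share with no missing number in any other list, share within 50 kb of another list) was recomputed under 10 alternatives. Of these 70 values, 39 stayed within the interval, or within 1.5 times, and 31 did not. Shortening or leaving out a list changes the value by construction. So does joining near peaks, which takes out regions close to other peaks. Peaks added because they were partly covered overlap or touch another list's peak by definition. No other cause was tested. No paired analysis was possible because each group had 1 library. Joining peaks up to 1000 bp apart left 316 regions, of which 315 were unchanged. Among those lost were the highest-scoring region, on chromosome 4, and the widest, on chromosome 5. They lay 0.843 and 0.826 kb from an MLL-AF9 peak of a shared region. Joining up to 5000 bp put 28.1% within 50 kb, and adding peaks less than 50% covered by other lists 40.4%. With the upper 75% of each list the share was 26.6%, the median score 940, no number missing in 1.43% and 27.5% within 50 kb. With the upper 50% there were 204 regions (91 of them among the 324), a share of 29.5%, a median width of 13.2 kb and score of 1085, 0.490% and 22.5%. With the MLL-AF9 list alone cut to its upper 50% there were 91 regions, a share of 13.2%, 1.495 Mb, a median score of 1074 and 6.59% with no missing number. With the best 620 peaks of each list there were 160 regions (71 among the 324), 2.73 Mb, a median width of 13.0 kb and score of 1118, 0.625% and 21.9%. Without the HOXA9 list no number was missing in 26.3%. Without the PML-RARa list there were 533 regions, a share of 38.8%, 7.73 Mb, 19.0% and 25.1%. Without the NT list the share was 32.3% and no number was missing in 19.9%. The unknown depth limits all counts.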
